A study of Mus musculus with 41 samples.

Results

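The MHC class I antigen presentation genes and the immunoproteasome genes were followed in mammary tumors of mice fed a low or a high fat diet. The 10 genes were H2-K1, H2-D1, B2m, Tap1, Tap2, Tapbp, Psmb8, Psmb9, Psmb10 and Nlrc5, taken by exact gene name from the arrays, each by its probe of highest mean signal. They are 10 of the 20913 genes that passed the filter on low signals, and 10 of 30175 gene names on the array, so that every member was measured and none was lost to the filter.

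All tumors arose from mammary duct fragments of female BALB/c Trp53-null donors that had been transplanted into the cleared fat pads of wild-type female BALB/c hosts. The transplanted epithelium therefore lacked Trp53 in every group, whereas stroma, vessels and immune cells could come from the wild-type host. The LFD and HFD groups stayed on a low or a high fat diet for life, HFD-LFD mice ate the high fat diet during puberty and the low fat diet as adults, and LFD-HFD mice did the reverse. The 29 epithelial tumors, labelled p53 variable and read as epithelial, were 8 each from LFD and HFD mice, 6 from LFD-HFD and 7 from HFD-LFD mice. Of them 14 were early and 15 late, with the limit at a year of latency. The 12 spindle cell tumors were 3 per regimen. Of these 9 were late and 3 early, the early ones from HFD-LFD and LFD-HFD mice. No label says which tumors shared a donor, and the 41 arrays are treated as separate tumors.

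MHC class I molecules display short peptides from the inside of a cell to CD8 T cells. The peptides are cut by the proteasome, whose catalytic subunits are exchanged in interferon-treated cells for Psmb8, Psmb9 and Psmb10 to make the immunoproteasome. Tap1 and Tap2 form the transporter that carries peptides into the endoplasmic reticulum, Tapbp (tapasin) holds the empty class I molecule beside it, H2-K1 and H2-D1 encode classical heavy chains, and B2m encodes the light chain that all of them share. Nlrc5 is the transactivator of class I genes, recruited to an enhanceosome at their promoters, and interferon-gamma raises its expression. Loss of class I expression is a known way for tumors to avoid T cells.

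Several of these genes lie side by side. In the RefSeq annotation of GRCm38.p6, 7 of the 10 were on chromosome 17, B2m was on chromosome 2, and Psmb10 and Nlrc5 were on chromosome 8. Psmb9, Tap1, Psmb8 and Tap2 occupied 34292 bases of chromosome 17, and Psmb9 and Tap1 pointed away from each other with 225 bases between their starts. That shared stretch, at chr17:34187331-34187555 on the plus strand, is shown with those before the starts of B2m (chr2:122147487-122147686) and H2-D1 (chr17:35262894-35263093), because the transcripts of these genes moved together from tumor to tumor. The capitals mark matches to the motifs described after the sequences.
Psmb9-Tap1: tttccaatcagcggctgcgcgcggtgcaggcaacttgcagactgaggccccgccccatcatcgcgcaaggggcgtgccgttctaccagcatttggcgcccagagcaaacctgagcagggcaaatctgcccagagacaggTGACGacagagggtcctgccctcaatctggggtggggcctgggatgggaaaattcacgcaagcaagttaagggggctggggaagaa
B2m: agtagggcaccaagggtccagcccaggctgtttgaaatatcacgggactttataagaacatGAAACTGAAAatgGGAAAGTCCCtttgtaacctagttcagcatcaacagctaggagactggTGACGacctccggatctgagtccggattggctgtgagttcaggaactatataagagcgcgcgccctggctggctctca
H2-D1: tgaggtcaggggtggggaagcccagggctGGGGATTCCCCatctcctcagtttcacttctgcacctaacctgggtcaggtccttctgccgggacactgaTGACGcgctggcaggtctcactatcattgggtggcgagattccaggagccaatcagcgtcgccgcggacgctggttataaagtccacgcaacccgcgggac

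Promoter windows that run from 250 bases before the start to 50 bases after it were at hand for 8 of the 10 genes, and both strands were searched. The core of the interferon-stimulated response element (GAAA, any 2 bases, GAAA) was found in B2m alone, at -139 to -130 from the start, against 3.44% of 32851 promoters. Only this exact string was sought, so that forms of the element that depart from it are not shown to be absent from the other windows. The usual NF-kappaB consensus occurred in B2m, H2-D1 and H2-K1 and in 4.51% of all promoters. A gamma-activated site (TTC, any 3 bases, GAA) occurred in Psmb8, at -97 to -89, and in 8.3% of all promoters. The cyclic AMP response element core TGACGT was in none of the 8 windows and in 7.51% of all promoters. The shorter run TGACG was looked for only after the windows had been read, and it stood in B2m, H2-D1, H2-K1, Psmb9 and Tap1 and in 20.8% of all promoters; Psmb9 and Tap1 share the same copy, at -144 and -86 from their respective starts. The NF-kappaB matches in H2-D1 and H2-K1 are overlapping copies shifted by a base, TGACG is part of TGACGT, and no other matches overlapped. A match is a string of letters and shows no binding.

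The probes are 60 bases long and their mm9 positions come from the scanner files. Those of Tap1 (chr17:34330854-34330913, plus strand), Psmb8 (chr17:34337771-34337830, plus), Psmb9 (chr17:34319174-34319233, minus) and, as second probes, H2-K1 (chr17:34133984-34134043, minus) and Nlrc5 (chr8:97030478-97030624, plus) are printed to show what was hybridised, all of them with 2 reading frames free of stop codons; the second, dim Psmb9 probe also has 2 and is left out. The positions of the last span 147 bases of the genome for its 60 bases, and whether the probes lie in exons or untranslated parts was not looked up for mm9. Class I heavy chains are similar to each other and differ between mouse strains, the array was designed on another strain than BALB/c, and the effect of this on the signal was not tested. The longest run that the H2-D1 probe used here shared with the probe of another class I gene was 12 bases, and that of the H2-K1 probe was 7 bases. Probes were compared with probes and not with transcripts, so these runs do not show that a probe reads its own gene alone.
Tap1: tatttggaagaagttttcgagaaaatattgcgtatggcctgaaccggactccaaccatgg
Psmb8: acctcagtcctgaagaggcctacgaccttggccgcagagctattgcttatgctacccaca
Psmb9: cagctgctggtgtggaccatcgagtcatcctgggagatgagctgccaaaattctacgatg
H2-K1 second probe: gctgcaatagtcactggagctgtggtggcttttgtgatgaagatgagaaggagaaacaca
Nlrc5 second probe: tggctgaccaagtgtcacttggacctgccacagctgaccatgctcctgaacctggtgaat

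Values are log2 ratios of the tumor signal over the signal of a common reference, RNA pooled from mouse cell lines, on the same array. The labels give Cy5 to the tumor and Cy3 to the reference, the study's methods text states the opposite, and the labels were followed; with the other reading the sign of every log2 ratio and difference would turn, while correlations would keep theirs. Over the epithelial arrays the Cy5 signal of each of the 10 genes varied more than its Cy3 signal, with SDs of 0.79 to 1.11 against 0.38 to 0.76 on the log2 scale. A ratio above 0 means more signal in the tumor than in the reference. In whole tumors, fewer cells of a type and less RNA per cell cannot be told apart.

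The arrays differed in quality. On epithelial arrays 52.4% to 94.9% of spots passed the background test for tumor signal, and on spindle cell arrays 59.1% to 72.7%. On the array of the early HFD tumor MSU_60L, 22% of spots were marked as outliers, so that only Tap1, Psmb9 and Nlrc5 were measured in it and the other 7 genes have 28 epithelial tumors, 13 of them early. Trp53 itself had log2 ratios between -2.25 and 3.74 in the epithelial group and between 0.08 and 1.95 in the spindle cell group, and whether its probe lies in the deleted part is not known, so that it does not check the genotype. The deposited matrix of processed ratios gives the data of the HFD tumors MSU_40R4A, MSU_57R and MSU_65R to one another, and the labels of the scanner files were kept. For each of the 10 genes the probe used gave a tumor signal well above background on all 41 arrays. The reference signal passed on all 41 too, except for Nlrc5, which passed on 37. None was saturated.

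The members stood above the reference in nearly every tumor: of 403 values measured, 398 were above 0. The ratios were not centred, and the median log2 ratio of an array ran from 0.03 to 0.32. The share of all genes above 0 was not counted. In epithelial tumors the classical heavy chain H2-K1 had a mean log2 ratio of 2.08 ± 0.96 (SD, n = 28), H2-D1 of 2.25 ± 0.69 (n = 28) and the light chain B2m of 2.89 ± 0.76 (n = 28). The peptide transporter subunits gave 2.46 ± 1.06 for Tap1 (n = 29) and 2.43 ± 0.70 for Tap2 (n = 28), and tapasin gave 2.07 ± 0.61 (n = 28).

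The catalytic subunits of the immunoproteasome had log2 ratios of 3.28 ± 0.61 for Psmb8 (n = 28), 3.15 ± 0.77 for Psmb9 (n = 29) and 0.82 ± 0.62 for Psmb10 (n = 28). The subunits that they replace, Psmb5, Psmb6 and Psmb7, were close to the reference, at 0.37 ± 0.33, 0.11 ± 0.42 and 0.08 ± 0.40 (SD, n = 28 each). Within single epithelial tumors the log2 ratio of Psmb8 exceeded that of Psmb5 by 0.86 to 3.80 and that of Psmb9 exceeded that of Psmb6 by 1.46 to 4.63. For Psmb10 against Psmb7 the same difference ran from -0.75 to 2.04, with a median of 0.77, so that in some tumors it was Psmb7 that stood higher over the reference. The transactivator Nlrc5 had a log2 ratio of 4.95 ± 0.99 (SD, n = 29), and its probe was dim in the reference, with a median over the 41 arrays of 67.5 intensity units against 2120 for the tumors.

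H2-K1 and Tap1 were each printed on 10 spots. The ratios of these spots had a median SD within an array of 0.066 for H2-K1 (highest 0.166) and of 0.116 for Tap1 (highest 0.924), against SDs of 0.96 and 1.06 between epithelial tumors. H2-K1 ran from -2.10 to 3.19 and Nlrc5 from 2.64 to 6.28 over the epithelial tumors.

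A few tumors were low in most of the members at once. The lowest was the late LFD tumor MSU_13L, with H2-K1 at -2.10, H2-D1 at 0.09, B2m at 0.89, Tap1 at 0.49 and Tap2 at 0.72. The same tumor had Psmb8 at 2.03, Psmb9 at 1.58 and Nlrc5 at 3.13, and its Psmb10, at 0.65, lay above the median of late tumors, 0.45. H2-K1 lay 2.19 below H2-D1 in tumor MSU_13L, whereas their median difference over epithelial tumors was -0.11. The second H2-K1 probe also gave a negative ratio in tumor MSU_13L, of -0.88. Averaged over the 10 genes, tumor MSU_13L stood at 0.83, the spindle cell tumors MSU_M63L and MSU_M18L at 1.26 and 1.27, the early HFD-LFD tumor MSU_117L at 1.38, the late HFD-LFD tumor MSU_109L at 1.52 and the late LFD-HFD tumor MSU_90R at 1.66. These low tumors came from all 4 regimens and from both onset classes, and the highest averages over all 10 genes were 3.38 in MSU_M129L and 3.77 in MSU_M86R, both early spindle cell tumors.

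**Figure D1:**
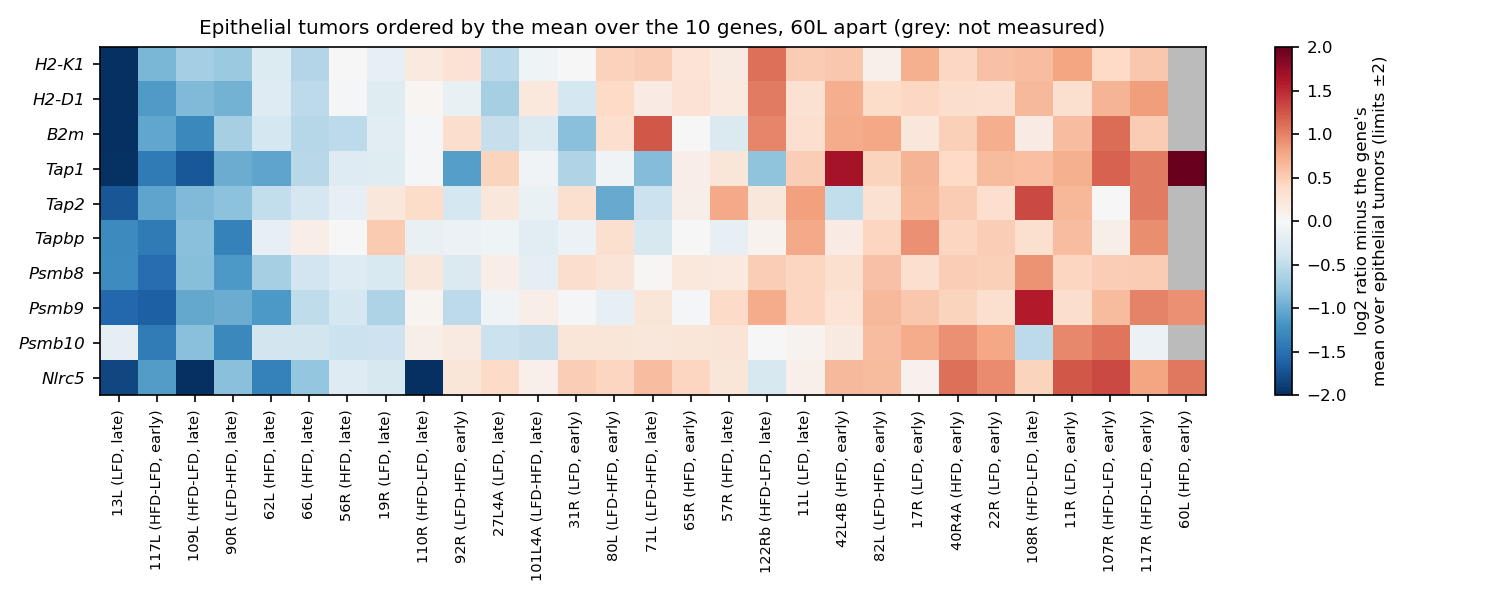
The 10 genes (rows) in the 29 epithelial tumors (columns, with regimen and onset), ordered by the mean over the genes with tumor MSU_60L set apart at the right. The prefix MSU_ is left out of the labels. Color gives the log2 ratio minus the mean of the gene over epithelial tumors, cut at 2 on either side, and grey cells were not measured; tumors MSU_13L, MSU_117L, MSU_109L and MSU_90R at the left are low in nearly all rows.

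In 3 cases 2 tumors carried the same number in their labels. Tumor MSU_117L was below MSU_117R in all 10 genes, by 1.28 to 2.62 on the log2 scale with a median of 2.0, although both were early HFD-LFD tumors. The late tumor MSU_11L and the early tumor MSU_11R, both LFD, differed by a median of -0.13 (MSU_11L minus MSU_11R), with MSU_11L higher in 3 of the 10 genes. The epithelial HFD tumor MSU_56R was below the spindle cell tumor MSU_M56LA in all 10 genes, by 0.39 to 1.30. Whether a shared number means the same mouse is not stated.

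The genes moved together across tumors. Over the epithelial tumors all 45 pairs of members had a positive Pearson r, from 0.42 to 0.94 with a median of 0.70, and over the 12 spindle cell tumors from 0.57 to 0.97 with a median of 0.84. The immunoproteasome subunits Psmb8 and Psmb9 gave r = 0.94, the heavy chains H2-K1 and H2-D1 gave r = 0.90, and H2-D1 with B2m gave r = 0.87. Against the mean of the other members, Psmb8 had the highest r (0.93) and Psmb10 the lowest (0.66). These are descriptions over 28 or 29 tumors that share arrays and a reference.

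Among 19595 other genes with at least 28 epithelial values, the 10 genes under a current RefSeq symbol that were most like the mean of the members were H2-Q7 (r = 0.97), H2-Q2 and H2-Q6 (both 0.96), H2-K2 and H2-T23 (both 0.95), H2-Q5 (0.94), Gm11127 (0.93), H2-Bl (0.91), Ly6e and H2-Q10 (both 0.90). All but Gm11127 and Ly6e carry names of the H2 complex, and 6 of the first 20 features in that order had no current symbol, among them Gm6571 (r = 0.92), an older name of the pseudogene H2-Q3. Several H2-Q and H2-T genes are near copies of each other and of H2-K1 and H2-D1, so that their probes may have read the same transcripts.

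Nlrc5 was set against each other member over the epithelial tumors, since it is the transactivator of class I genes. Whether it acts on each of the 9 was not tested. With B2m it gave r = 0.70 (Spearman rho 0.71, n = 28, permutation test, two-sided, adjusted p = 0.00013 over 20 relations), and with Psmb8 r = 0.70 (rho 0.73, permutation test, adjusted p = 0.0002). Over the 9 genes r ran from 0.52 with Tap2 to 0.70, with permutation p-values adjusted to 0.00893 at most, and rho from 0.44 to 0.73, adjusted to 0.0327 at most. Without the tumors farthest from the median of Nlrc5, MSU_110R and MSU_109L, r ran from 0.61 to 0.83. Within early tumors alone r was 0.56 to 0.87 and within spindle cell tumors 0.57 to 0.93, but within late tumors it was 0.21 (Psmb10) to 0.65. Tumor MSU_110R departed from the others: its Nlrc5, at 2.64, was the lowest of the epithelial tumors, while its B2m was 2.86 and its Psmb8 3.51.

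Tap1 and Psmb9, which point away from each other across the printed 225 bases, gave r = 0.76 (rho 0.79, n = 29, permutation test, two-sided, unadjusted p = 1e-05, the smallest the permutations can give), and r = 0.73 without tumors MSU_60L and MSU_13L. Psmb9 had a higher r with Psmb8 (0.94), H2-D1 (0.86) and Tap2 (0.83), and Tap1 with Psmb8 (0.79), beside a median of 0.70 over the 45 pairs. Ptprc, the common leukocyte antigen CD45, was set against the members in the same way. It gave r = 0.65 with Tap1 (rho 0.57, permutation test, adjusted p = 0.00057), which fell to 0.44 without tumors MSU_42L4B and MSU_60L, and r from 0.13 (Tap2) to 0.42 (H2-D1) with the other 9. For these 9 the permutation p-values of r adjusted to 0.0541 or more, whereas rho adjusted to 0.03 for Psmb10 (rho 0.45), 0.0347 for Nlrc5 (0.42) and 0.0498 for H2-D1 (0.40). Within late tumors r between Ptprc and the members ran from -0.08 to 0.27, against 0.06 to 0.76 in early tumors, and that difference was not tested.

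**Figure D2:**
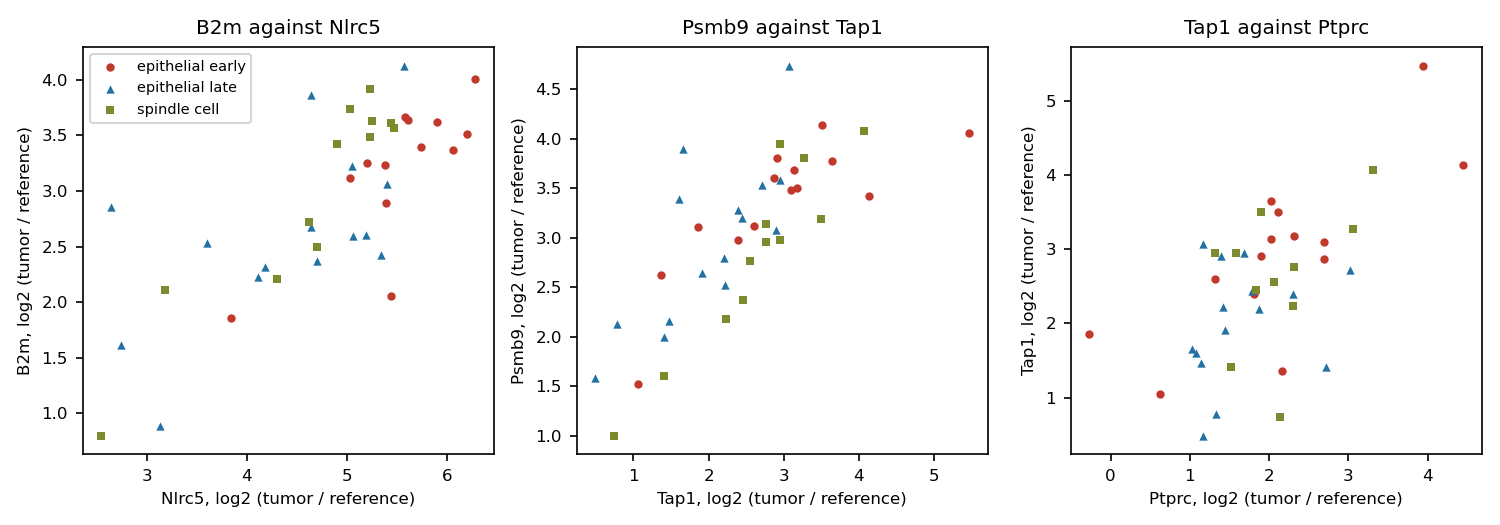
B2m against Nlrc5, Psmb9 against Tap1 and Tap1 against Ptprc, each point 1 tumor and both axes log2 ratios of tumor over reference. The first 2 panels rise from lower left to upper right in all 3 groups, and in the third the early tumors with the highest Ptprc and Tap1 are MSU_42L4B and MSU_60L.

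Early and late epithelial tumors were compared to ask whether tumors of short latency differ in these genes. All 10 members had a higher mean in early tumors, none passed the test at an adjusted p under 0.10, and the widest difference was that of the transactivator Nlrc5. Over all genes, 30 of 20913 (0.143%) passed and 52.2% had a higher mean in early tumors, with a median difference of 0.01 on the log2 scale, against a median of 0.51 over the members. Unadjusted, p was under 0.05 for 4 members (Nlrc5, Psmb10, Tap1 and B2m) and for 13.2% of all genes. The p-values given are those of limma with Benjamini-Hochberg adjustment over all genes tested.

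Nlrc5 had a lowest, median and highest log2 ratio of 3.84, 5.59 and 6.28 in the 14 early and of 2.64, 4.64 and 5.57 in the 15 late tumors. The groups overlapped, but 8 early tumors lay above every late tumor and 4 late tumors below every early tumor. The means were 5.55 ± 0.62 and 4.40 ± 0.97 (SD), a difference of 1.15 (SE 0.29), or 2.21-fold, with an adjusted p of 0.117. Leaving out tumor MSU_117L, the lowest early one, gave a difference of 1.28 and an adjusted p of 0.0298, leaving out its namesake MSU_117R gave 1.13 and 0.0993, and the mean over both Nlrc5 probes gave 1.18 and 0.0902, all past the threshold. On the second, dimmer Nlrc5 probe alone the means were 3.38 ± 0.88 in early and 2.17 ± 0.71 in late tumors, and Nlrc5 was among the genes that the study itself had listed from these tumors for the same contrast, so that its place here is no independent evidence.

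Psmb10, the immunoproteasome subunit that replaces Psmb7, had the next lowest p. Its log2 ratio was -0.57, 1.07 and 1.90 (lowest, median, highest) in 13 early and -0.47, 0.45 and 1.08 in 15 late tumors, and 6 early tumors lay above every late one. The difference was 0.67 (SE 0.20, adjusted p = 0.18), and without tumor MSU_117L it was 0.81 with an adjusted p of 0.0162, past the threshold. Psmb8 differed by 0.38 (SE 0.22, adjusted p = 0.462) and Psmb9 by 0.38 (SE 0.27, adjusted p = 0.565), with early tumors at 3.49 ± 0.57 and 3.34 ± 0.67 and late ones at 3.11 ± 0.62 and 2.97 ± 0.83 (SD). The subunits Psmb5, Psmb6 and Psmb7 differed by 0.06, 0.27 and 0.25, and none of them passed the test.

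Of the peptide transporter, Tap1 had log2 ratios of 1.05, 3.0 and 5.47 (lowest, median, highest) in 14 early and 0.49, 2.20 and 3.07 in 15 late tumors, and 7 early tumors lay above every late one. The Tap1 means differed by 0.93 (SE 0.34, adjusted p = 0.251), by 0.48 with slide as a fixed block (adjusted p = 0.839) and by 0.62 without tumors MSU_42L4B and MSU_60L (adjusted p = 0.459). Its partner Tap2 differed by 0.15 (SE 0.26, adjusted p = 0.847), with a 95% confidence interval of -0.39 to 0.68, and tapasin by 0.40 (SE 0.22, adjusted p = 0.438). Whether the difference of Tap1 exceeded that of Tap2 was not tested.

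Among the subunits of the class I molecule itself, B2m was at 3.20 ± 0.62 in early and 2.63 ± 0.79 in late tumors (SD, n = 13 and 15), a difference of 0.57 (SE 0.26, adjusted p = 0.348). H2-D1 differed by 0.45 (SE 0.25, adjusted p = 0.436). H2-K1 differed by 0.60 (SE 0.34, adjusted p = 0.452), and by 0.32 without tumor MSU_13L (adjusted p = 0.441). Its late tumors were more spread, from -2.10 to 3.19 with an SD of 1.20, than its early ones, from 1.17 to 2.87 with an SD of 0.43. In each of B2m, H2-D1 and H2-K1 no early tumor lay above every late one.

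**Figure D3:**
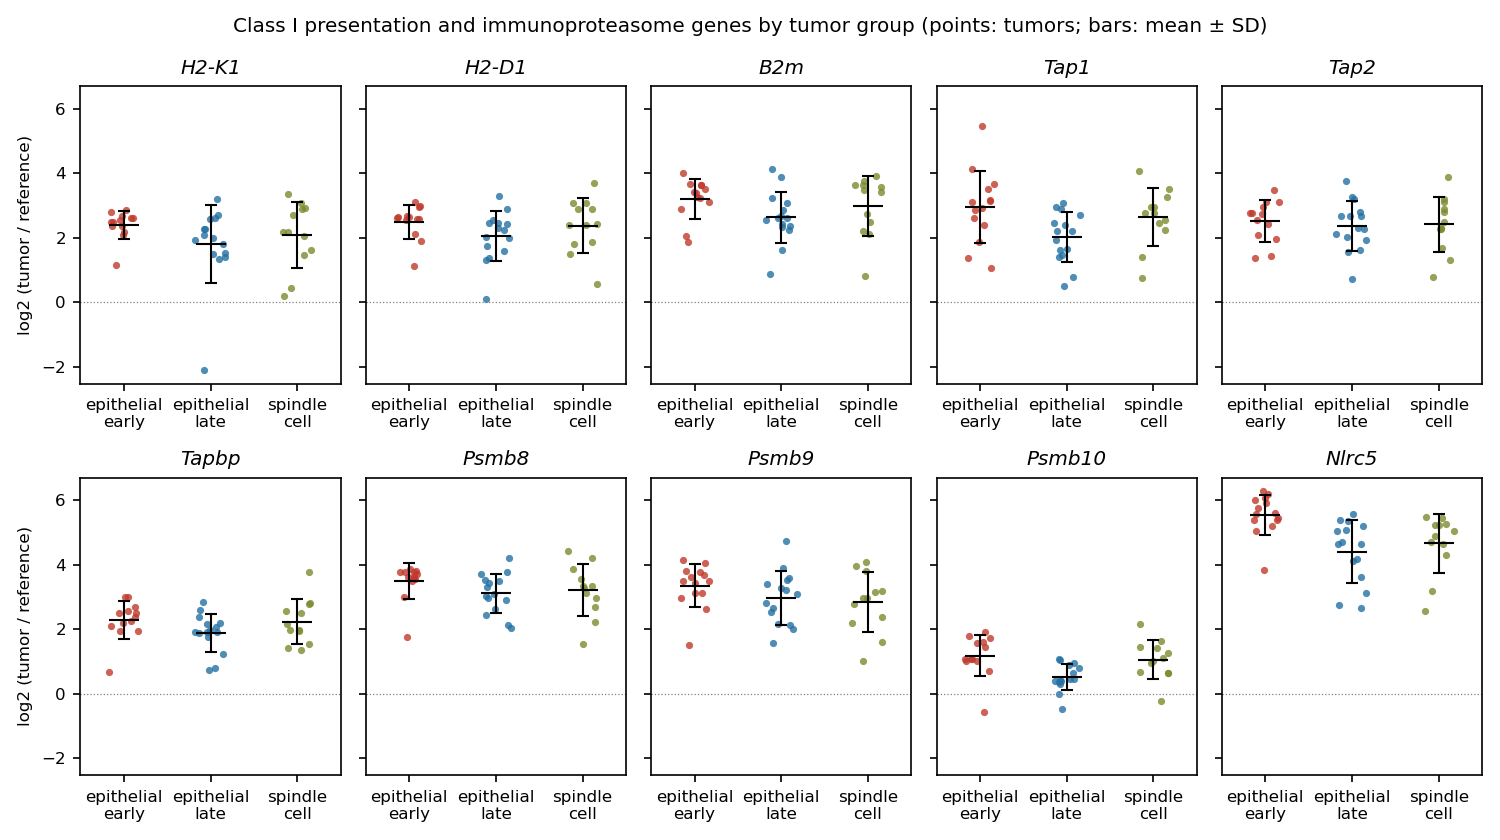
Log2 ratio of tumor over reference for the 10 genes in early epithelial, late epithelial and spindle cell tumors, each point 1 tumor, with bars for the mean and SD. Every early mean lies above the late mean, the groups overlap for all 10 genes, and the single H2-K1 point below 0 is the late LFD tumor MSU_13L at -2.10.

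Slides hold 4 arrays, and 3 of the 8 epithelial slides held both onset classes, on 12 tumors. Within these slides 29 of the 30 differences were positive, from -0.35 (Tap2) to 1.14, and Nlrc5 differed by 1.14, 0.66 and 1.03. The 10 genes moved together, so the 30 are not separate measurements, and the share of all genes positive there was not counted. The slide that gave both the 1.14 of Nlrc5 and the -0.35 of Tap2 held early LFD-HFD tumors (MSU_80L and MSU_92R) and late HFD tumors (MSU_56R and MSU_62L), so that onset and regimen cannot be told apart in its 10 differences. The slide with the 0.66 of Nlrc5 held 1 early tumor, MSU_82L, beside 3 late ones. The slide with the 1.03 held MSU_40R4A, MSU_57R, MSU_65R and MSU_66L, and the labels of the first 3 differ between the deposited files. With slide as a fixed block Nlrc5 differed by 0.97 with an adjusted p of 0.61. Spots that passed the background test made up 69.3% ± 5.42 on early and 77.6% ± 11.0 on late arrays (SD, n = 14 and 15), and the part of this in these differences was not tested. Taken by channel, before any scaling between arrays, the early mean of Nlrc5 exceeded the late by 0.87 in the tumor channel and differed by -0.27 in the reference channel, which holds the same RNA on all arrays, and for Tap1 these values were 0.58 and -0.35.

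The rest of the pathway was read from lists. Of 18 other class I heavy chain genes 14 were tested, and all 14 had a higher mean in early tumors, with a median difference of 0.60, from 0.06 for H2-Q4 to 0.84 for H2-Q8. None passed, and 11 had an unadjusted p under 0.05, beside 52.2% of all genes with a higher mean and 13.2% with such a p. Since these probes may have read the same transcripts as each other and as H2-K1 and H2-D1, the 14 are not separate measurements. Of 5 peptide trimming and loading genes 4 were higher in early tumors and none passed, with the aminopeptidase Erap1 highest at 0.80 (SE 0.26, adjusted p = 0.199) and the chaperone Canx (calnexin) lowest at -0.06. Of the 11 noncatalytic 20S subunits tested 10 were higher and none passed, with a median of 0.10, from -0.01 (Psma7) to 0.34 (Psmb4), and of 4 activator and assembly genes 2 were higher, from -0.12 (Psme3) to 0.34 (Psme1).

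Of 12 interferon-gamma pathway genes tested, 9 had a higher mean in early tumors, none passed, and 5 had an unadjusted p under 0.05, beside the same shares of all genes, 52.2% and 13.2%. Irf7, an interferon regulatory factor, had the widest difference, 1.28 (SE 0.35, adjusted p = 0.146), and the receptor chain Ifngr1 the lowest, -0.25. Irf7 was also in the study's own list. Of 9 factors that bind class I promoters 8 were higher and none passed, from -0.21 (Rela) to 0.49 (Nfkb1), both subunits of NF-kappaB.

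Markers of other cells were read beside these values. All 4 leukocyte markers had a higher mean in early tumors, by 0.06 to 0.49, none passed, and their mean ratio ran from 0.24 to 2.22 in early and from 0.50 to 2.45 in late tumors. Of 8 T and NK cell markers 5 were higher and none passed, from -0.36 to 1.08, with Gzmb, the granzyme of cytotoxic cells, at 1.49 ± 1.29 in early and 0.41 ± 0.94 in late tumors (SD). Of 6 macrophage markers 3 were higher, of 3 dendritic cell markers all 3, and of 3 B cell markers none. The mean of the T and NK cell list ran from -0.90 to 2.10 and from -1.01 to 2.07 in the early and late groups, and the part of these cells in the class I values was not tested. The 6 epithelial markers, which check the label, had a mean ratio of 1.18 ± 0.76 over the 29 tumors (SD), 3 of them higher in early tumors.

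Onset was then compared within each regimen, in groups of 3 or 4 tumors. In LFD mice all early tumors were on the same slide and all late tumors on another. The same held in HFD-LFD mice, so that onset and slide cannot be told apart in these regimens. No member passed in LFD (0.0191% of all genes passed), HFD (0.0765%), HFD-LFD (0.00478%) or LFD-HFD (0%, with 680 genes at an unadjusted p under 0.05) mice, by limma. Nor did any member pass the test of whether the onset difference varied between regimens (0.00478% of all genes), where the lowest unadjusted p was 0.251, for H2-K1.

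In LFD mice Nlrc5 was at 6.19, 5.03, 5.89 and 5.44 in early and 5.05, 3.13, 4.64 and 5.34 in late tumors, a difference of 1.1 (SE 0.58, adjusted p = 0.666). In HFD mice it was at 6.05, 5.61, 6.01 and 5.39 in early and 4.70, 5.19, 3.61 and 4.19 in late tumors, without overlap, a difference of 1.34 (SE 0.58, adjusted p = 0.258). The share of all genes without overlap in groups this small was not counted, so this sets Nlrc5 apart from no other gene. In HFD-LFD mice Nlrc5 was at 6.28, 3.84 and 5.74 against 5.40, 2.74, 2.64 and 4.64, with overlap, and in LFD-HFD mice at 5.38, 5.58 and 5.20 against 5.06, 5.57 and 4.11, also with overlap. The last regimen had the smallest Nlrc5 difference, 0.47 (SE 0.67), and HFD-LFD the widest, 1.43 (SE 0.62).

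Tap1 differed most in HFD mice, where the early tumors gave 2.87, 4.14, 5.47 and 2.60 and the late ones 2.20, 2.71, 1.41 and 1.91. Early tumor MSU_65R, at 2.60, lay below late tumor MSU_57R, at 2.71, and the difference was 1.71 (SE 0.66, adjusted p = 0.216). Without tumors MSU_40R4A, MSU_57R and MSU_65R, whose labels differ between the deposited files, the Tap1 difference was 2.96 with an adjusted p of 0.014; without MSU_40R4A alone the adjusted p was 0.0974 and without MSU_65R alone 0.0888, all past the threshold. The early HFD tumors left without the 3 are MSU_42L4B and MSU_60L, which were on a slide of their own that was scanned apart from the other epithelial slides, so that onset and slide cannot be told apart there. The highest Tap1 ratios, in MSU_60L and MSU_42L4B, came with Ptprc at 3.94 and 4.45, the highest of the epithelial tumors, and the part of leukocytes in them was not tested.

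H2-K1 differed most in LFD mice, at 2.87, 2.79, 2.66 and 2.07 in early and 2.59, -2.10, 1.91 and 1.54 in late tumors, with a difference of 1.61 (SE 0.63, adjusted p = 0.519). Psmb10 in LFD mice was at 1.78, 1.57, 1.60 and 1.06 in early and 0.90, 0.65, 0.41 and 0.39 in late tumors, a difference of 0.92 (SE 0.38, adjusted p = 0.555). In HFD-LFD mice 5 members, H2-K1, H2-D1, Tap2, Psmb8 and Psmb9, had a lower mean in early tumors, by 0.08 to 0.37, and that group holds the low tumor MSU_117L. The other 3 regimens had a higher early mean for all 10 members.

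**Figure D4:**
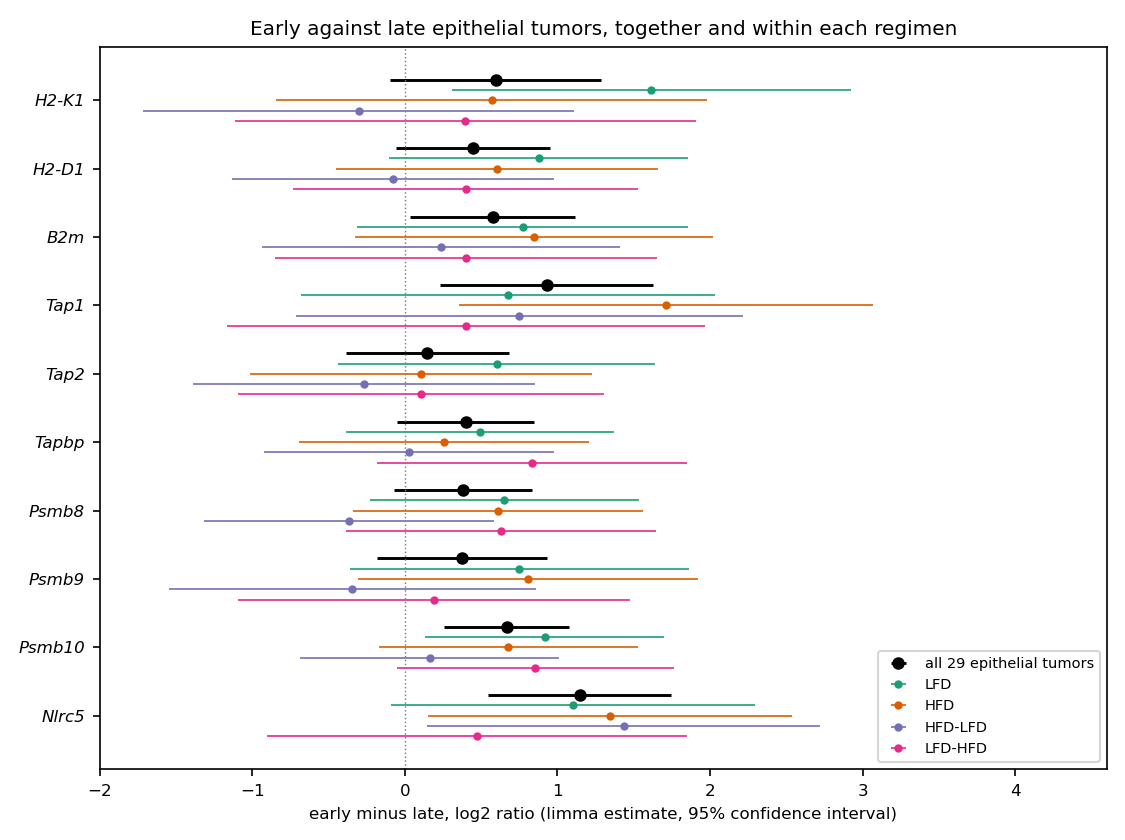
Early minus late difference in log2 ratio for each gene with its 95% confidence interval from limma, over all 29 epithelial tumors (black) and within each regimen (colors). All 10 black points lie right of 0, the Nlrc5 point at 1.15 is the farthest, and the HFD-LFD points are the only ones left of 0.

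The dietary regimens were compared to ask whether fat in puberty or adulthood goes with different levels of these genes. No member passed the test of a difference between the 4 regimens in epithelial tumors (F-test of limma, 0.473% of all genes passed), and the lowest adjusted p of a member was 0.71, for Tap2. None passed in any pair of regimens either, where the share of all genes called was 0% for HFD against LFD, 1.25% for HFD-LFD against LFD, 0% for LFD-HFD against LFD, 0.0287% for HFD-LFD against HFD, 0.263% for LFD-HFD against HFD and 0% for LFD-HFD against HFD-LFD. In the pairs with 0 of all genes called, an unadjusted p under 0.05 was reached by 1971, 1371 and 1060 genes respectively. Of the 8 epithelial slides 7 held a single regimen, and the remaining slide held HFD and LFD-HFD tumors. Regimen and slide therefore cannot be told apart in the other pairs. With slide as a random block 0 of all genes passed the F-test, against 99 without it.

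For Nlrc5 the regimen means were, from high to low, 5.15 ± 0.55 in LFD-HFD (n = 6), 5.09 ± 0.87 in HFD (n = 8), 5.09 ± 0.93 in LFD (n = 8) and 4.47 ± 1.44 in HFD-LFD (SD, n = 7), and no neighbours in that order differed beyond their spread. Tap1 was highest in HFD, at 2.91 ± 1.31, and lowest in LFD-HFD, at 2.02 ± 0.63, a difference of -0.89 (LFD-HFD minus HFD, SE 0.55, adjusted p = 0.577). Tap2 was highest in LFD, at 2.63 ± 0.80, and lowest in LFD-HFD, at 2.03 ± 0.47. H2-K1, H2-D1 and B2m had their lowest mean in LFD, which holds tumor MSU_13L, at 1.79 ± 1.64, 2.0 ± 0.87 and 2.69 ± 0.91. Between the highest and lowest regimen the means of the 10 genes lay apart by 0.20 (Psmb8) to 0.89 (Tap1).

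**Figure D5:**
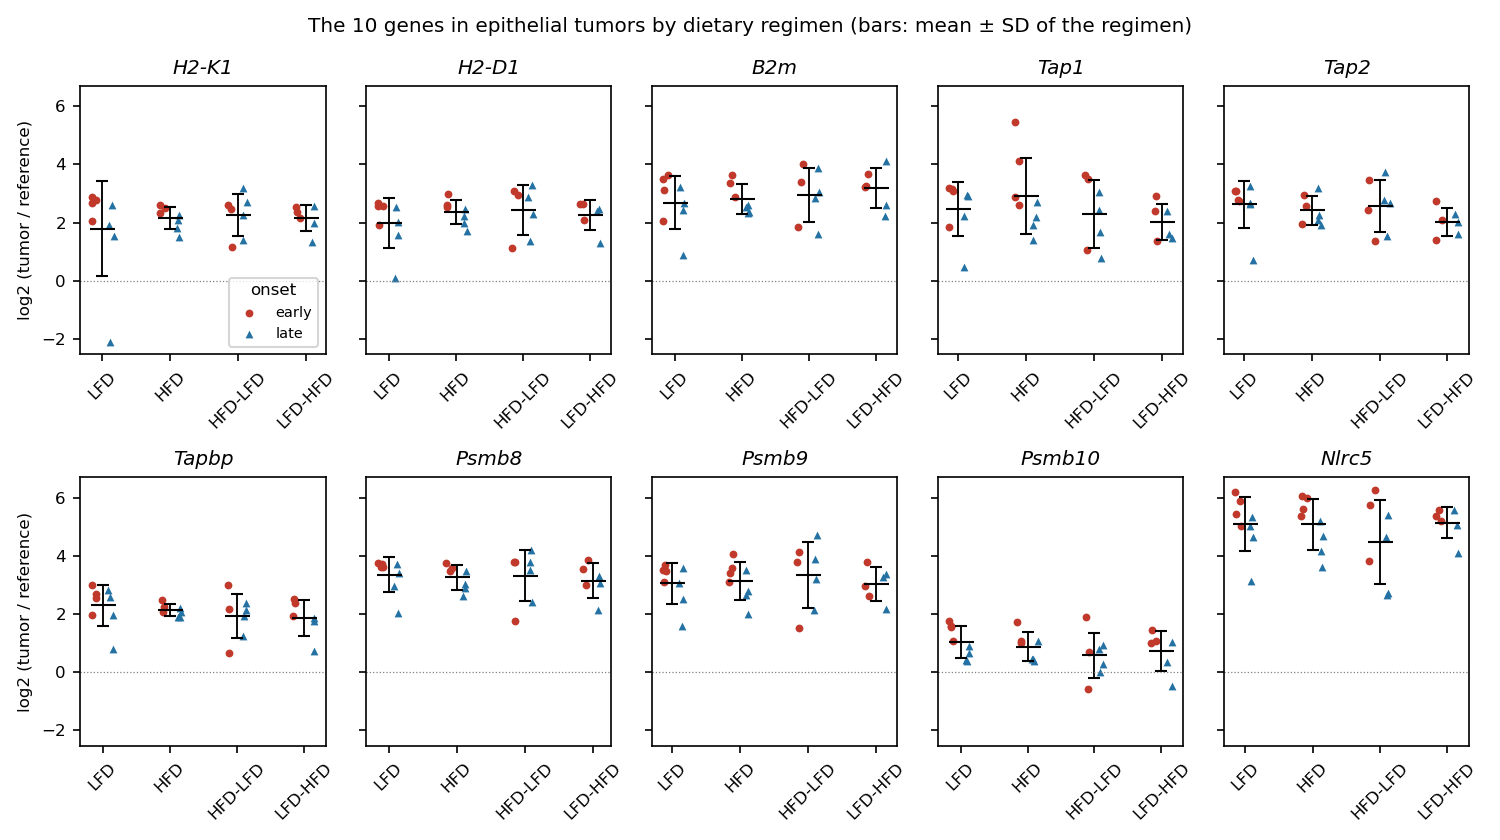
Log2 ratio of tumor over reference for the 10 genes in epithelial tumors of each regimen, early tumors as circles and late tumors as triangles, with bars for the mean and SD of the regimen. The regimens overlap for every gene, and the low LFD point of H2-K1 is tumor MSU_13L.

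Tumors of mice that ate the high fat diet in puberty (HFD and HFD-LFD) were set against those that did not. In epithelial tumors no member passed (0% of all genes, 2066 of them with an unadjusted p under 0.05), and the differences ran from -0.31 for Nlrc5 (95% confidence interval -1.04 to 0.41) to 0.35 for Tap1 (-0.42 to 1.12). With slide as a fixed block they ran from -1.14 for Nlrc5 to 0.35 for Tap2, and B2m was at -0.79, but that fit rests on 1 slide, on which the pubertal diet and onset cannot be told apart, and no member passed. Over all 41 tumors no member passed (0.00956% of all genes), with differences between -0.16 (Psmb10) and 0.24 (Tap1). For the high fat diet in adulthood (HFD and LFD-HFD) no member passed in epithelial tumors (0% of all genes, 837 with an unadjusted p under 0.05), and the differences ran from -0.36 for Tap2 (-0.88 to 0.15) to 0.32 for Nlrc5 (-0.41 to 1.04).

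Spindle cell tumors, a histology with mesenchymal features, were compared with epithelial tumors. No member passed, whereas 20.2% of all genes did at an adjusted p under 0.05, and no member had an unadjusted p under 0.05. Their differences, spindle cell minus epithelial, ran from -0.32 for Psmb9 (95% confidence interval -0.87 to 0.24, adjusted p = 0.438) to 0.23 for Psmb10 (-0.19 to 0.66, adjusted p = 0.461), with a median of 0.04 against -0.07 over all genes. Nlrc5 was at 4.66 ± 0.92 in spindle cell tumors and 4.95 ± 0.99 in epithelial ones (SD, n = 12 and 29), and H2-K1 at 2.09 ± 1.02 and 2.08 ± 0.96 (n = 12 and 28). The intervals of the 10 differences reached at most 0.95 from 0, for Nlrc5, so that differences up to that size are not shown to be absent. Onset was mixed differently, with 3 early spindle cell tumors of 12 and 14 early epithelial ones of 29. Among late tumors alone, Nlrc5 had a mean of 4.50 in spindle cell and 4.40 in epithelial tumors (n = 9 and 15), so its direction turned. Tap1 was at 2.45 and 2.01 and Psmb10 at 0.96 and 0.51, wider apart than over all tumors. Tap2, Psmb8 and Psmb9 had a lower mean in late spindle cell tumors, Psmb9 at 2.66 against 2.97. The 12 spindle cell arrays were scanned in a session of their own and read with another software release, so that a difference between histologies and one between sessions cannot be told apart.

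Of the other genes of the pathway, 2 of 14 class I heavy chains, 1 of 5 peptide trimming and loading genes and 5 of 18 proteasome genes passed between the histologies, beside 20.2% of all genes. Among the heavy chains H2-Q4 was lower in spindle cell tumors by 0.80 (SE 0.14, adjusted p = 8.59e-05) and H2-M3 by 0.60 (SE 0.22, adjusted p = 0.0492), and none was higher. The chaperone Calr (calreticulin) was higher by 0.49 (SE 0.12). Of the proteasome, Psmb5, Psma1, Psma4, Psma5 and the assembly factor Pomp were lower, by 0.30 to 0.43, and none was higher. No interferon-gamma pathway gene passed, and among promoter-binding factors Nfkb1 was higher, at a difference of 1.06 (SE 0.25), and Nfyc lower, at -0.34 (SE 0.11).

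Markers moved with histology too. The endothelial markers Pecam1 and Kdr and the fibroblast markers Col1a1 and Pdgfrb were higher in spindle cell tumors, each 2 of 4 in its list, and all 6 epithelial markers had a lower mean without passing. Of the 8 T and NK cell markers, Cd8a was lower by 1.39 (SE 0.48, adjusted p = 0.0344 by limma). Its tumor signal was well above background on only 25 of 29 epithelial and 9 of 12 spindle cell arrays. Gzmb, of the same list, had a higher mean in spindle cell tumors, 1.44 ± 1.52 against 0.93 ± 1.23 (SD). The mean ratio of the leukocyte markers ran from 0.73 to 2.42 in spindle cell tumors, and from 0.24 to 2.45 in epithelial ones. The part of these cells in the class I values was not tested.

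Within the 12 spindle cell tumors no member passed between regimens (F-test of limma, 0% of all genes, 782 with an unadjusted p under 0.05), and the lowest unadjusted p was 0.223, for B2m. B2m was at 0.80, 3.62 and 2.21 in LFD, 2.72, 3.63 and 2.11 in HFD, 3.57, 3.74 and 3.49 in HFD-LFD and 2.5, 3.92 and 3.42 in LFD-HFD tumors. The HFD-LFD values lay within 0.25 of each other, and the lowest value of all, in tumor MSU_M18L, was in the LFD group. All LFD and HFD spindle cell tumors were late. The early ones were MSU_M129L (HFD-LFD) and MSU_M84R and MSU_M86R (LFD-HFD), so that regimen and onset cannot be fully told apart here. Nlrc5 was likewise lowest in MSU_M18L, at 2.55, and in MSU_M63L, at 3.18, and lay between 4.31 and 5.47 in the other spindle cell tumors.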

How the data were processed

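Total RNA of 41 tumors was hybridised with a common reference RNA on Agilent 2-color arrays, each tumor 1 replicate, and the labels do not say whether tumors share donors. The authors deposited the intensity of 43020 spots per array in each channel, background-subtracted and dye-normalized by the scanner software, and a matrix of processed log2 ratios, used as an alternative. The submitters' processing notes name Agilent Feature Extraction 8.5.1.1, and the file headers give 11.0.1.1 for epithelial and 10.5.1.1 for spindle cell tumors. Here log2 of the Cy5 over the Cy3 processed signal was taken, spots marked as outliers were left missing (1.19% of gene values), spots of a probe were averaged, and 27307 of 39429 probes were kept, those whose tumor and reference signals both exceeded 10 on 80% or more of the arrays. Of several probes of a gene, the brightest on average stood for it.

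Groups were compared with lmFit and eBayes of limma 3.58.1 in R 4.3.3 without covariates, with Benjamini-Hochberg adjustment over all genes; the study used the SAM statistic. A gene passed at an adjusted p under 0.10 for onset and diet and 0.05 for histology. Correlations were tested with 100000 permutations in numpy 2.4.6, with ranks and adjusted p-values from scipy 1.17.1. The fits were tested on simulated data. Promoter sequences and gene places are from RefSeq on GRCm38.p6 and probe positions are mm9. Precision rests on how many arrays there are. The members, lists and tests were chosen with earlier results of these data known. Named genes are the members, the highest and lowest of each list with those that passed, and the 10 named genes most like the members; Gzmb, Ptprc and the subunits Psmb5 to Psmb7 were named in addition. Alternatives changed the background correction, scaling, data source, filter, probe choice, outlier spots, slide, labels, covariates and tumors.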

Additional observations from a re-analysis of the deposited data

Results flagged for a closer look

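For each gene, groups of 4 to 10 tumors were searched for a single tumor set apart from the rest, which chance gives in about 1 in 20 sets. Counting each gene in each group as a set, 3 values in 43 sets were found. The genes moved together and share tumors, so the sets are not separate. Psmb10 in the late HFD tumor MSU_57R was 1.08 on the log2 scale, above the other 3 of its group at 0.39 to 0.46. H2-D1 in the early LFD tumor MSU_31R was 1.91, below the other 3 at 2.58 to 2.66, and Tap1 in the same tumor was 1.86, below the others at 3.10 to 3.17. Tumor MSU_57R is among the 3 HFD tumors whose labels differ between the deposited files. Tumor MSU_31R also had the lowest Ptprc ratio of the epithelial tumors, -0.27.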

How the results depend on the processing

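The number of members called was 0 in every comparison and stayed 0 under each alternative run, with these exceptions. For early against late epithelial tumors it was 1 with the mean over all probes of a gene (Nlrc5), and 0 to 2 when single tumors were left out, with Nlrc5 and Psmb10 without MSU_117L and Nlrc5 without MSU_117R. For onset within regimens it was 1 without MSU_40R4A, MSU_57R and MSU_65R (Tap1 in HFD), and 0 to 1 when single tumors were left out. All 10 members kept a higher early mean in each of the 440 values recomputed. The Nlrc5 difference was between 0.89 (normexp and loess) and 1.18 over the alternatives that kept all or most tumors, with adjusted p from 0.0902 to 0.61, and between 1.02 and 1.28 when single tumors were left out, with adjusted p from 0.0298 to 0.202. For the pubertal diet 396 of 430 recomputed values kept their direction in epithelial tumors and 531 of 550 over all tumors, for the adult diet 398 of 420, and for histology 516 of 560; none of these had passed.

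Over all genes the counts moved more: from 30 for onset to between 0 and 289 (289 without MSU_117L), from 99 for the regimens to 0 to 200, from 0 for the pubertal diet in epithelial tumors to at most 268, from 2 over all tumors to at most 22, from 1 for the interaction of onset and regimen to at most 1665, and from 4218 for histology to 2348 to 7891. The causes were not tested. With slide as a fixed block the adult diet could not be fitted, and of the pairs of regimens only LFD-HFD against HFD could. Keeping outlier spots but leaving out MSU_60L was chosen after seeing the data. No paired analysis was possible because no groups compared share more than 1 tumor number in their labels. The number of arrays and the dim reference signal of Nlrc5 limit what the ratios can show.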
